A study of Mus musculus with 2 samples.

Results

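Processed pseudogene starts are the annotated first bases of genes that GENCODE calls processed or transcribed processed pseudogenes, and those lying more than 5 kb from every protein-coding start were taken. The rule found 9149 of the 10236 processed pseudogenes of the annotation, among 55413 annotated gene starts in all. Of the members 8908 were of the processed type and 241 of the transcribed type, for which the annotation holds evidence of RNA. A window of 1 kb on each side of each start was searched. Chromatin openness was measured by DNase-seq, in which the enzyme DNase I cuts open DNA and the cuts are sequenced, in whole cerebellum of male B6CASTF1/J mice, F1 hybrids of the C57BL/6 and CAST strains, aged 8 to 10 months. There was 1 group with 2 libraries, replicate 1 and replicate 2, each from a pool of 2 biosamples, and no treatment, mutant or second tissue. Whether an animal contributed to both pools is not stated in the labels, and part of the difference between libraries may therefore be technical.

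A processed pseudogene is a copy of a messenger RNA that was reverse transcribed and inserted back into the genome by the machinery of LINE-1 elements. It therefore lacks introns and usually the promoter of its parent gene, and genes with abundant RNA in the germ line, such as those of ribosomal proteins and of Gapdh, have left the most copies. Some copies gained a promoter from their surroundings and are transcribed, and a few code for protein as retrogenes. A DNase I peak marks a stretch of open chromatin such as a promoter or an enhancer, and a footprint is a short stretch within open chromatin that is protected from cutting, often by a bound factor. In bulk tissue, openness in fewer cells and less cutting per cell cannot be told apart.

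Few of the members were open: 192 of 9149 windows held a peak of the shorter, stricter peak list in replicate 1 (2.10%, 95% Wilson interval 1.82 to 2.41) and 214 in replicate 2 (2.34%, 2.05 to 2.67). The mean was 2.22% ± 0.17 (SD, n = 2). Wilson intervals here cover counting error only. As background, 2.18% and 2.87% of 1139385 genome tiles of 2 kb that lie over 5 kb from coding starts held a peak in replicates 1 and 2. The tile share lay within the interval of the members in replicate 1 and above it in replicate 2. Both replicates had a peak at 149 members (1.63% of members, against 1.84% of tiles), and 8892 (97.2%) had none in either. The members with a peak in both made up 77.6% of the list of replicate 1 and 69.6% of that of replicate 2. They lay on 20 chromosomes and used 147 different strongest peaks, since a few neighbouring starts share a peak.

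The sequences at the most open members are shown because they differ in kind. Each stretch lies inside the strongest peak of replicate 1, reads 5′ to 3′ on the plus strand of mm10 from the RefSeq sequence of that build, and has in capitals the bases within a footprint of both replicates. Gm21769 (chr8:20122141-20122300) and Gm10060 (chr8:19784531-19784830) are copies of Nsfl1c on chromosome 8, and 4930471M09Rik (chr6:91440841-91441040) is of the transcribed type. Bambi-ps1 (chr2:122467761-122467980) has a CpG-rich stretch upstream of its start. Gm8354 (chr1:48733661-48733900) and Rps27a-ps1 (chr1:52521521-52521700) have CpG-poor ones, and that of AC132481.2 (chr17:30177461-30177680) spans its start, at 30177475, and runs on into the pseudogene.
Gm21769: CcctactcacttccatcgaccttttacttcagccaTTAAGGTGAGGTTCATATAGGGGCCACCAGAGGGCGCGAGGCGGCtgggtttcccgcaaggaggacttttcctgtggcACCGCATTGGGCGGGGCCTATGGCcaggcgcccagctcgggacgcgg
Gm10060: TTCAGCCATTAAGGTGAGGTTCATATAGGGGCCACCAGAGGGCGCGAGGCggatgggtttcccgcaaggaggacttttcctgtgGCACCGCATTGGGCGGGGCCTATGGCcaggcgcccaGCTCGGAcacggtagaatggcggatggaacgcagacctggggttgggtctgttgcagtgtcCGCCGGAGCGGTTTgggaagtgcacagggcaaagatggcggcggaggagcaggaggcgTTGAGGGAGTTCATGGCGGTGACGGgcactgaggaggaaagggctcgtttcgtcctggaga
4930471M09Rik: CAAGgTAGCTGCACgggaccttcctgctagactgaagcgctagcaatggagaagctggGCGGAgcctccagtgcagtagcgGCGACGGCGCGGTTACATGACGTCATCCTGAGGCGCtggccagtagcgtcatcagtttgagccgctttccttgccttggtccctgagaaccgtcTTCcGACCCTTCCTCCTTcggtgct
Bambi-ps1: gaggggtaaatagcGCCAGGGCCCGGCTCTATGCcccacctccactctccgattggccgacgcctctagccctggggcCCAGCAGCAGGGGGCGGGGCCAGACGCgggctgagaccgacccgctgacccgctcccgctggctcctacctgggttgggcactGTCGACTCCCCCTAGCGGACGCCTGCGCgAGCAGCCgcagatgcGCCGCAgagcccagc
Gm8354: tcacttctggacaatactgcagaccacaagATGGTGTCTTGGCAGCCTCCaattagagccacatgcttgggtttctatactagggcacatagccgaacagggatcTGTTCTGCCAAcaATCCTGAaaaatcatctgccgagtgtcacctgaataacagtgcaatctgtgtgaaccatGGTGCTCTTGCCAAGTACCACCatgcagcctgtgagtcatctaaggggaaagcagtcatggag
Rps27a-ps1: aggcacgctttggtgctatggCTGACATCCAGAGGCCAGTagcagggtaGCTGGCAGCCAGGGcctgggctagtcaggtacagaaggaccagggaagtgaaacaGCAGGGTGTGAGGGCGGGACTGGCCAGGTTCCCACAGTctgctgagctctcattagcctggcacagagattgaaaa
AC132481.2: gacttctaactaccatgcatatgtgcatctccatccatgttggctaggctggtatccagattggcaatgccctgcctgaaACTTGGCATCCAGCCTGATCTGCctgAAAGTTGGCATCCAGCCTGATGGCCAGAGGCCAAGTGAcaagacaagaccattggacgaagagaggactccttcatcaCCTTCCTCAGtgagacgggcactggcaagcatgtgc

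The stretches of Gm21769, Gm10060, 4930471M09Rik and Bambi-ps1 held 11, 21, 15 and 20 CpG. Those of Gm8354, Rps27a-ps1 and AC132481.2 held 2 each. The stretches of Gm21769 and Gm10060 share long runs of letters, including a footprint over a match to the CTCF motif.

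**Figure D1:**
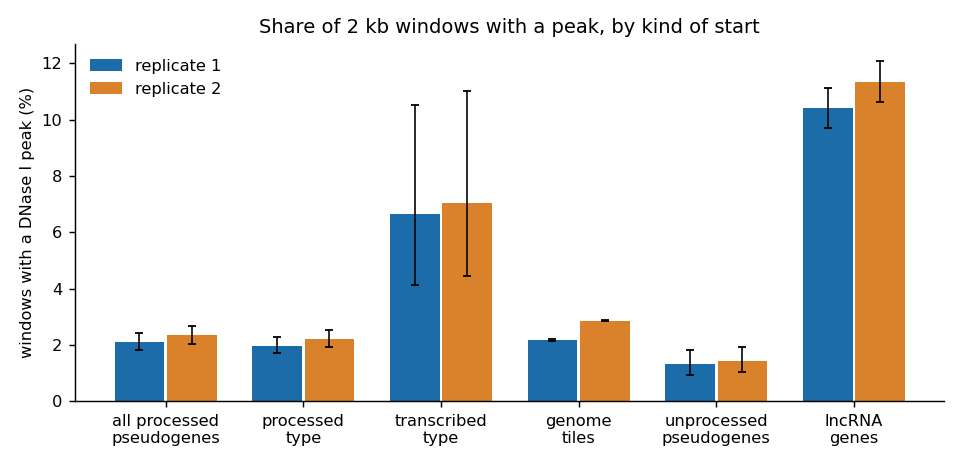
Share of 2 kb windows that held a peak of the shorter list (y axis, percent) for each kind of start (x axis), with blue bars for replicate 1, orange bars for replicate 2 and lines for 95% Wilson intervals. All processed pseudogenes (2.10% and 2.34%) sit close to the genome tiles (2.18% and 2.87%) in replicate 1 and below them in replicate 2. Transcribed processed pseudogenes (6.64% and 7.05%) sit between the tiles and lncRNA genes (10.4% and 11.3%).

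The transcribed type stood apart from the processed type. Of its 241 members 16 had a peak in replicate 1 (6.64%, interval 4.13 to 10.5) and 17 in replicate 2 (7.05%, 4.45 to 11.005), and 13 had one in both. The processed type gave 176 and 197 of 8908, a mean of 2.09% ± 0.167 (SD, n = 2), so the intervals of the types did not overlap in either replicate. By median, the transcribed type was 2574 bp long, with 58.3% of its sequence aligned to the parent, 24 CpG in the window and a coding start at 36073 bp. The medians of all members were 574 bp, 99.3%, 18 CpG and 47859 bp. How far these traits go with the difference in share was not tested. Of starts away from coding genes, 10.9% ± 0.656 (SD, n = 2) of 7119 lncRNA starts and 1.37% ± 0.0795 of 2669 unprocessed pseudogene starts had a peak, and of 21938 coding gene starts 53.4% ± 0.999 had one. The start base itself lay inside a peak at 45 members (0.492%) in replicate 1 and 39 (0.426%) in replicate 2, with 26 members in both. The middle base of the tiles lay inside a peak in 0.237% and 0.313%. For the transcribed type the start base was inside a peak in 4.15% and 3.32%.

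With the longer peak list and with a lenient cut rate threshold, members were above the tiles on average. In the longer peak list 4.54% and 4.55% of members had a peak, beside 3.81% and 4.73% of tiles. A base at which the local cut rate passed a false discovery rate (FDR) of 0.05 lay in 5.21% and 5.75% of members, beside 4.29% and 5.6% of tiles. The means were 4.54% of members and 4.27% of tiles for the longer list, and 5.48% and 4.95% for an FDR of 0.05. In replicate 1 the tile share lay below the interval of the members in both measures (4.13 to 4.98 and 4.78 to 5.69), and in replicate 2 it lay within it (4.14 to 4.99 and 5.29 to 6.25). At the stricter FDR of 0.001 the shares were 2.37% and 2.63% of members, beside 2.36% and 3.14% of tiles, and the mean of members was below that of tiles (2.75%). Here the tile share lay within the interval of the members in replicate 1 (2.08 to 2.70) and above it in replicate 2 (2.33 to 2.98). In each of these measures the tile share of replicate 2 exceeded that of replicate 1 by more than the member share did.

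More members had a peak over the start than next to it. In bins of 250 bp along the strand of the pseudogene, 0.721% of members had a peak over the bin before the start and 0.798% over the bin that begins with it in replicate 1. In replicate 2 the values were 0.689% and 0.721%. The bins next to them on either side held 0.426% and 0.437% in replicate 1, and 0.437% and 0.470% in replicate 2. A further rise lay between 2.25 and 2.5 kb downstream, at 0.634% in replicate 1 and 0.787% in replicate 2, where 58 and 72 members had a peak, and in replicate 2 this was above the bins at the start. In replicate 2 the bin that follows held 0.710%, and the last bin, from 4.75 kb downstream, held 66 members, as many as the bin that begins with the start. In replicate 1 the bins at the start were the highest of all. Footprints peaked in the bin that begins with the start in replicate 1, at 1.01% of members. In replicate 2 that bin, at 0.798%, was level with the bin 2.25 kb downstream, at 0.809%.

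**Figure D2:**
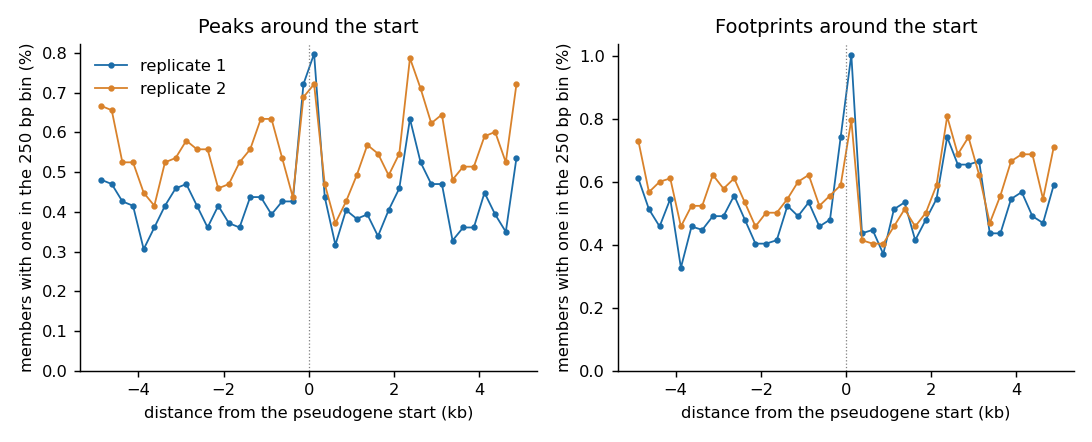
Share of the 9149 members with a peak (left) or a footprint (right) over each 250 bp bin (y axes, percent) by distance from the start along the strand of the pseudogene (x axes, kb, negative values upstream), with replicate 1 in blue and replicate 2 in orange. Both replicates stand above their neighbouring bins at the start, at 0.798% and 0.721% for peaks, and again from 2.25 kb downstream, where replicate 2 reaches 0.787%. Replicate 2 has further bins of like height, such as the last one at 0.721%.

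Within the windows, 223 different peaks were met in replicate 1 and 245 in replicate 2. Relative to the sequence searched, peak middles were at 14.9 and 13.5 per Mb within the pseudogenes, 11.3 and 13.1 per Mb upstream of the start, and 7.68 and 8.53 per Mb beyond the pseudogene's end. In the longer list the density within the pseudogene was 38.6 and 31.6 per Mb, above 20.9 and 23.9 per Mb upstream. Of the peak middles in the shorter list, 39.3% and 33.6% lay within the pseudogene, which made up 30.8% of the sequence searched.

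Where members lay close to other genes, they were more often open. Members 5 to 10 kb from a coding start had a peak in 3.53% ± 0.0685 (SD, n = 2) of cases, and members over 300 kb away in 0.579% ± 0.307. For tiles the shares were 4.13% ± 0.472 and 0.736% ± 0.28. In all 6 distance bands the mean share of members was below that of tiles, most widely at 10 to 20 kb with 2.46% of members and 3.81% of tiles. In replicate 1 members were above tiles in 2 bands, with 2.60% against 2.32% at 50 to 100 kb and 1.57% against 1.40% at 100 to 300 kb. The members' share was not ordered at every step, with 2.74% at 20 to 50 kb. On either side of the 5 kb limit the shares were 4.05% of 259 processed pseudogenes at 4 to 5 kb and 3.62% of 221 members at 5 to 6 kb. Members inside a coding gene on the other strand had a peak in 3.90% ± 0.672 of 1052 cases, those on the same strand in 2.23% ± 0.841 of 673, and those in no coding gene in 1.98% ± 0.0381 of 7424. Only 169 members lay within 1 kb of a start of a gene that is no pseudogene, and 6.21% ± 1.26 of these had a peak. On chromosome X the share was 1.12% ± 0.159 of 891 members, and on chromosome Y none of 92 members had a peak in either replicate. Tile shares were not computed inside coding genes, near other starts or by chromosome. Whether the background differs in the same way at these places was therefore not tested.

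CpG content went with openness among members and tiles alike. With fewer than 10 CpG in the window 0.543% ± 0.171 (SD, n = 2) of members had a peak, and with 40 or more 8.88% ± 1.02. Among tiles the shares were 0.665% ± 0.33 and 10.3% ± 0.168. In the middle bands members were less often open than tiles of the same CpG content, with 0.946% against 1.94% at 10 to 19 CpG and 2.74% against 5.65% at 20 to 39. The median window of all members held 18 CpG, that of tiles 13 and that of the 149 members with a peak in both replicates 32. How far CpG content goes with the differences between members and tiles was not tested.

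**Figure D3:**
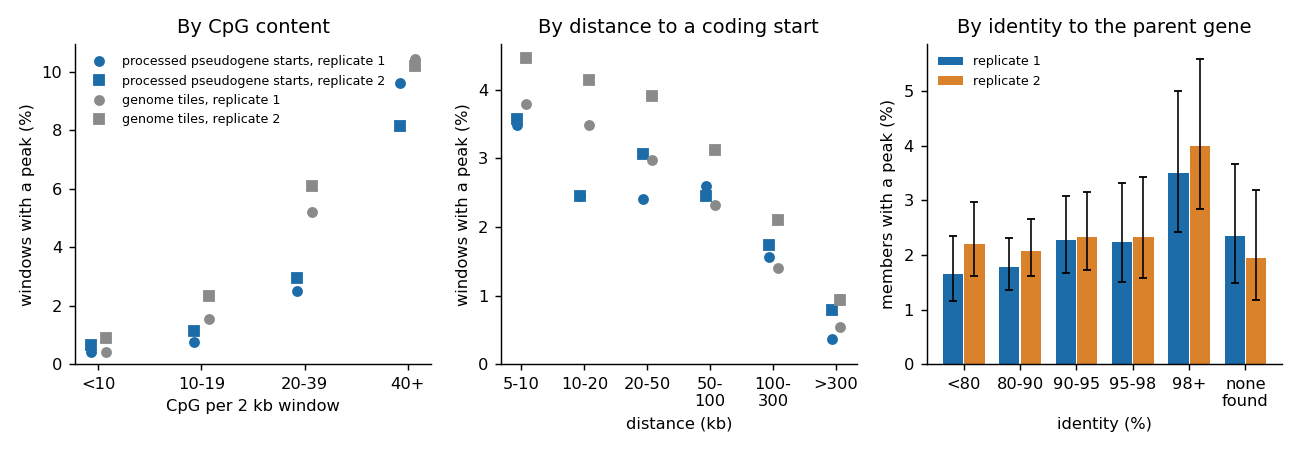
Left and middle, share of windows with a peak (y axes, percent) by CpG count of the window and by distance to the nearest coding start (x axes, bands), with members in blue, tiles in grey, circles for replicate 1 and squares for replicate 2. Right, share of members with a peak by percent identity to the parent gene, with blue and orange bars for replicates 1 and 2 and lines for 95% Wilson intervals. The share rises with CpG count to 8.88% of members on average at 40 or more, is lowest, at 0.579%, beyond 300 kb, and is highest, at 3.5% and 4.0%, for copies with 98% identity or more.

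A parent gene was found for 8380 members (91.6%) by aligning the pseudogene to the coding sequence of genes with 2 or more coding exons. There were 2372 parents, of which 1396 had a single member and 67 had 20 or more. Copies close to their parent in sequence were most often open. At 98% identity or more, 28 of 801 members had a peak in replicate 1 (3.5%, interval 2.43 to 5.0) and 32 in replicate 2 (4.0%, 2.84 to 5.59). Below 80% identity the mean was 1.92% ± 0.388 (SD, n = 2) of 1822, at 80 to 90% 1.93% ± 0.217 of 2933, at 90 to 95% 2.31% ± 0.0403 of 1755, and at 95 to 98% 2.29% ± 0.0661 of 1069. Thus the 4 lower bins differed little, and the interval of the highest bin overlapped that of the next in each replicate. The 769 members with no parent found had a peak in 2.15% ± 0.276 of cases.

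Copies of ribosomal protein genes, which encode the structural proteins of the ribosome, formed the largest group with 2126 members. Of these 43 were open in replicate 1, 53 in replicate 2 and 37 in both. Their mean share was 2.26% ± 0.333 (SD, n = 2), beside 2.22% of all members. Copies of glycolysis genes had a peak in 9 and 11 of 479 cases, those of RNA-binding and splicing proteins in 8 and 11 of 324, and those of chromatin and nuclear proteins in 7 and 8 of 437. Copies of respiratory chain and ATP synthase genes had a peak in 3 and 4 of 209, those of cytoskeleton genes in 3 and 3 of 173, those of chaperones and cyclophilins in 2 and 2 of 245, and those of translation factors in 1 and 2 of 172. The highest mean was that of copies of ubiquitin and proteasome genes, with 7 and 10 of 184 (4.62% ± 1.15), of which 5 were shared. The counts in the smaller groups are too low to order them.

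Among single parents, Gapdh, the glycolytic enzyme with the most copies, had 372 members, and the same 6 had a peak in both replicates. Rpl7a had 163 members with 3 open in each replicate, Rps2 had 122 with 3 and 4, and Rpl29 had 118 with 4 and 4. Hmgb1, which encodes an abundant DNA-bending chromatin protein, had 142 members, with none open in replicate 1 and 1 in replicate 2. Of the 67 parents with 20 or more members, 31 had no member with a peak in either replicate, among them Rpl23a with 89, Ppia with 76, Rpsa with 55 and Rpl9 with 51. These 4 were picked from the list for their member number after their values were seen. The highest shares were those of Rps27a with 2 of 21 members in both replicates, Rpl13 with 2 and 1 of 26, and Rps18 with 1 of 20 in both. Over all members 2.10% had a peak in replicate 1 and 2.34% in replicate 2. The counts at single parents are too low to order the parents. Whether any parent differs from all members was not tested.

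Most parents were open themselves. Counting each parent once, 2080 of 2372 (87.7%) had a peak at their own start in replicate 1 and 2065 (87.1%) in replicate 2. For all coding starts the mean was 53.4%, but the measures are unlike. A parent was open if any of its transcript starts had a peak, while coding starts were counted as 1 per gene. Parents also had 2 or more coding exons, which was not asked of all coding genes. The parent's own start had a peak in both replicates for 7618 members, of which 2.27% ± 0.167 (SD, n = 2) had a peak, and in neither replicate for 696 members, of which 1.72% ± 0.61 had one. For the 137 members with a parent and a peak in both replicates, the median signal at the member was 1.08 in replicate 1 and 0.860 in replicate 2. Signal is the authors' own value for the height of each peak, on a scale of its own in each library. The median signal at the parent starts with a peak was 8.34 and 5.79, taking the highest of each parent's transcript starts. The parent start was the higher of the pair for 123 members in replicate 1 and 122 in replicate 2, and it had no peak for 10 and 9. The members above a parent start with a peak were Gm21769, Gm10060, Gm8354 and Rps27a-ps1 in both replicates, and Npm3-ps1 and Gm5590 in replicate 2 as well.

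Peaks at members were weak for their library. The strongest peak in the window had a median signal of 0.903 in replicate 1, from 0.150 to 25.8, and 0.705 in replicate 2, from 0.139 to 15.4. In the tiles the medians were 1.24 and 0.853, at lncRNA starts 1.71 and 1.19, and at coding starts 4.83 and 3.39. The median member peak ranked at percentile 31.8 of all peaks in replicate 1 and 36.7 in replicate 2. Members with a peak in both replicates had medians of 1.08 and 0.853. The 43 members of replicate 1 alone had a median of 0.343 and the 65 of replicate 2 alone one of 0.449. Of these, 21 and 40 had a peak of the longer list in the other library.

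Signal at the 149 shared members went together in the libraries, with Spearman's rho of 0.881 and Pearson's r of log2 signal of 0.902 across members, which share both libraries and are not independent. Since the scale of signal differs between the libraries, with a median over all peaks of 1.40 in replicate 1 and 0.961 in replicate 2, which library is the higher at a member is not read here. The peak middles in the replicates lay a median of 12 bp apart.

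**Figure D4:**
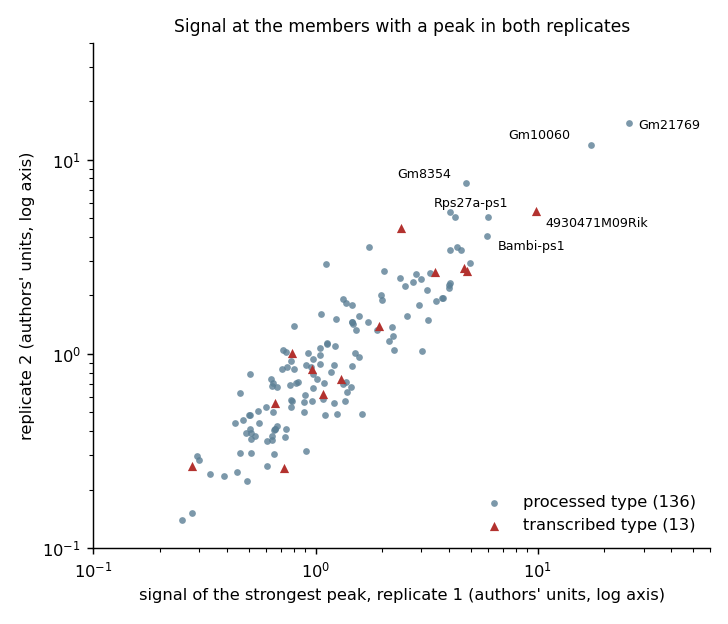
Signal of the strongest peak at each of the 149 members with a peak in both replicates, replicate 1 (x axis) against replicate 2 (y axis), in the authors' units on log axes, with circles for the processed type, and triangles for the transcribed type. Members high in one library are high in the other (Spearman's rho 0.881), and Gm21769 and Gm10060 stand at the top.

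The members with the highest signal were copies of the same gene. Gm21769, a 111 bp fragment annotated on the plus strand of chromosome 8 at 20122384 to 20122494, had a signal of 25.8 in replicate 1 and 15.4 in replicate 2. Gm10060, of the same length at 19784746 to 19784856, had 17.4 and 11.9. Both are copies of Nsfl1c, which encodes a cofactor of the ATPase p97 in membrane fusion, with 89.5% and 90.5% identity, and their signal was above that of the Nsfl1c start itself, at 7.12 and 3.97. Their peak middles lay 164 and 154 bp upstream of the start for Gm21769 and 46 and 66 bp for Gm10060, and their windows held 15 and 12 and 17 and 13 footprints. Of 5 copies of Nsfl1c among the members these 2 had a peak in both replicates. A peak elsewhere on chromosome 8, at 20424721 to 20424940 and within 1 kb of no member start, had 25.2 and 12.7. The highest signal at unprocessed pseudogene starts over 5 kb from coding starts had the same values, 25.2 and 12.7. The peak at 20424721 aligned to the strongest peak of Gm21769 with 97.5% identity in replicate 1 and 97.8% in replicate 2. Nearby on chromosome 8 Gm21112, a copy of Rps7, had 1.52 and 1.33 at different peaks, while Gm7760, Gm45754 and Gm7807, further copies of Rps7, had no peak in either.

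The highest member of the transcribed type was 4930471M09Rik on chromosome 6, with a signal of 9.86 and 5.47 and its peak middle 28 and 38 bp upstream of its start. A start of the lincRNA gene 1810044D09Rik lies 75 bp away on the other strand, so the peak cannot be assigned to either start. AC132481.2, a copy of the alpha-tubulin gene Tuba1b within Zfand3, had 4.83 and 2.67, and the peak middle lay 95 bp inside the copy in both replicates. Magef1, of the MAGE protein family, had 4.68 and 2.76 with the peak middle 6 bp inside the start in both. The annotation calls it a transcribed processed pseudogene and no parent was found for it.

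Gm5590, a copy of Fam32a over a short part of its length, had 2.42 in replicate 1 and 4.46 in replicate 2 and held 16 and 8 footprints. D630033A02Rik had 3.44 and 2.64, at different peaks of its window, and the most footprints of replicate 2, with 15 and 19. Its window held 171 CpG, and the microRNA gene Mirlet7i starts 831 bp away. Zfp389, aligned to the zinc finger gene Zfp113 with 69.1% identity over 43.0% of its sequence, had 1.93 and 1.38. Gm9157 on chromosome X, a copy of Ebag9 whose nearest other start is that of the noncoding gene Jpx at 29136 bp, had 1.31 and 0.746. Gm15666, aligned to the keratin gene Krt19 over part of its length, had 0.964 and 0.841. All 5 were open in both replicates, and the last 3 were below Magef1 in each.

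Members of the processed type with high signal mostly had their peak outside the copied sequence. Gm8354, a copy of Nono, which encodes an RNA-binding protein of paraspeckles, had 4.78 and 7.55 at 690 bp upstream in both replicates. Rps27a-ps1, a copy of a ubiquitin and ribosomal protein fusion gene, had 5.96 and 5.04 at 629 and 609 bp upstream. A start of the lincRNA gene Gm553 lies 663 bp from the pseudogene start. Whether it lies on the side of the peak was not examined. Bambi-ps1, a copy of the gene of a decoy receptor of TGF-beta signalling, had 5.92 and 4.06 at 344 and 334 bp upstream. Gm13094, a copy of Rps2 that lies 8686 bp from a start of Eno1, had 4.04 and 5.39 at 1045 and 1015 bp upstream. Gm4152 had 4.54 and 3.45 and Gm6610 had 4.95 and 2.92, also upstream. A start of the lincRNA gene CR974462.6 lies 736 bp from that of Gm4152, on the other strand. To which of these starts the Gm4152 peak belongs was not tested.

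By contrast the peak middle lay within the copy at Gm38038 in Cep350, with 4.26 and 5.07, and at Gm30517 in Tmem56, with 4.33 and 3.55. The same held for Gm9463, a copy of Mapk1ip1l, with 4.05 and 3.43 at 65 and 55 bp from the start and with 11 and 13 footprints. In these 3 members the peak middle was within the copy in both replicates.

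Further members were among the 2 highest of their parent group. Gm7688, a copy of Eif1, which acts in start codon selection, had 3.98 and 2.18. Gm10146, a copy of Lsm7 with 100% identity, had 3.75 and 1.93, with the peak middle 1050 bp upstream. Gm10039, a copy of Atp5g1 for the c-ring of ATP synthase, had 3.18 and 2.13, and Ndufs6b, a copy of the complex I gene Ndufs6, had 1.25 and 0.493. The peak middle of all 4 lay upstream of the copy.

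Gm8022, a copy of the histone deacetylase gene Hdac1, had 2.52 and 2.23 beyond its end, and Gm8666, a copy of Hmgn1 for a nucleosome-binding protein, had 1.37 and 0.721 right at its start. AC102132.2, a copy of the proteasome gene Psmb1, had 1.99 and 1.89, and Gm2058, a copy of the ubiquitin-conjugating enzyme gene Ube2h, had 1.01 and 0.740. Among chaperone copies, Gm8241, aligned to Dnajc27, had 2.23 and 1.23, and Gm12608, a copy of the mitochondrial chaperonin gene Hspd1, had 0.735 and 1.02. At each of these 6 the peaks of both replicates overlapped.

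Of the 6 open copies of Gapdh, the highest were Gm3200 with 1.33 and 1.92 and Gm9568 with 1.73 and 1.47, both with their peak upstream. Gm15957, a further copy of Gapdh, had 0.671 at a peak within the copy in replicate 1 and 0.676 at another peak 772 bp upstream in replicate 2, and was among the members with the most footprints, 15 and 9. All were far below the Gapdh start, which had 10.1 in replicate 1 and 7.88 in replicate 2.

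Members with a peak in a single library had low values. Among the 3 highest in replicate 1 alone, Rpl5-ps2 had 1.82 and Gm21182, a copy of Pim2, had 1.02. In replicate 2 alone the highest were Rpl30-ps6 with 1.498, Gm14053, a copy of Rpl21 within Snap25, with 1.49, and Gm27220 with 1.45. In the longer list of the other library, Rpl5-ps2 had 0.714, Gm21182 0.506, Gm14053 1.02 and Gm27220 1.21, and Rpl30-ps6 had no peak.

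Peaks at members more often resembled another peak of the same list. A peak was called alike when a stretch of it of 100 bp or more aligned to another peak with 95% identity or more. This held for 11 of 223 peaks at members in replicate 1 (4.93%, interval 2.78 to 8.62) and 12 of 245 in replicate 2 (4.90%, 2.82 to 8.36). Of all peaks over 5 kb from coding starts it held for 0.575% and 0.580%, outside the intervals of the members. Members are copies by definition, so a peak within one can resemble the parent by construction. Like peaks were also met upstream of the start, outside the annotated copy, at 6 of 103 peak middles in replicate 1 and 6 of 120 in replicate 2. Within the pseudogene they were 4 of 84 and 5 of 76, and beyond its end 2 of 27 and 1 of 30. In each replicate 3 of the 12 like pairs were a member and its own parent's start. Gm15519 had 1.13 in both replicates, and its peak was 99.1% identical over 111 bp to that at the start of Arfgap2, with 2.08 and 2.22. Gm13243 had 0.286 in replicate 1, beside a like peak at Tlk2 of 1.03, and Gm14719 had 0.293, beside one at Ppdpf of 3.98. In replicate 2 Gm42627 had 0.240, beside 1.30 at 2310009B15Rik, and Gm9800 had 0.367, beside 1.81 at the start of Ptma. These 5 members were picked after their values were seen, and in each pair the parent start was the higher. Whether reads of one copy were placed at the other was not tested.

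With the members whose peak resembled another left out of the count of open members, the share with a peak was 2.10% on average in place of 2.22%, and 136 in place of 149 members had a peak in both. Gm21769, Gm10060 and Gm5590 were among those left out, so their signal may include reads from like sequences elsewhere, which was not tested. The strongest peak of Gm21769 had 4 such alignments to other peaks in each replicate, and that of Gm10060 had 5 in replicate 1 and 4 in replicate 2. More than 1 alignment can fall in the same peak.

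Footprints were found in the windows of 276 members in replicate 1 (3.02%, interval 2.69 to 3.39) and 264 in replicate 2 (2.89%, 2.56 to 3.25), beside 3.06% and 3.51% of tiles. Again the tile share lay within the interval of the members in replicate 1 and above it in replicate 2. A footprint inside a peak was found at 165 of 192 open members (85.9%) in replicate 1 and 187 of 214 (87.4%) in replicate 2. Over all members these are 1.80% and 2.04%, beside 2.02% and 2.52% of tiles. A footprint with no peak in the window was found at 104 and 73 members. The median over members with any was 2 footprints in both replicates. Of the 149 members with a peak in both, 4 had no footprint in either.

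Short motifs were counted on both strands and without mismatch, within 100 bp of the middle of each peak and in footprints with 5 bp added on each side. The strongest peaks at members were richer in CpG than distal peaks, which are all peaks over 5 kb from coding starts. The sets are unlike, since only the strongest peak of each member window was counted and every distal peak was. In replicate 1, 54.0% of the 187 different strongest peaks of members and 33.0% of 27498 distal peaks had 5 or more CpG, and in replicate 2 41.0% of 212 and 24.97% of 35332 did. The motif of SP and KLF factors (GGGCGG) was in 18.7% against 9.09% in replicate 1 and 13.7% against 6.65% in replicate 2. The AP-1 motif (TGANTCA), bound by Fos and Jun factors, was less frequent at members, with 2.67% against 7.28% and 4.72% against 8.67%. The E-box CAGATG of neuronal bHLH factors was in 21.9% against 27.9% and 25% against 30.4%. The NFY motif (CCAAT) was in 28.3% against 23.5% and 30.7% against 25.5%, and the NFI motif TTGGCA in 24.6% against 22.8% and 26.4% against 26.3%. The CpG and GGGCGG counts overlap in sequence, CAGATG can lie within a CTCF match, and CCAAT on the other strand overlaps TTGGCA.

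**Figure D5:**
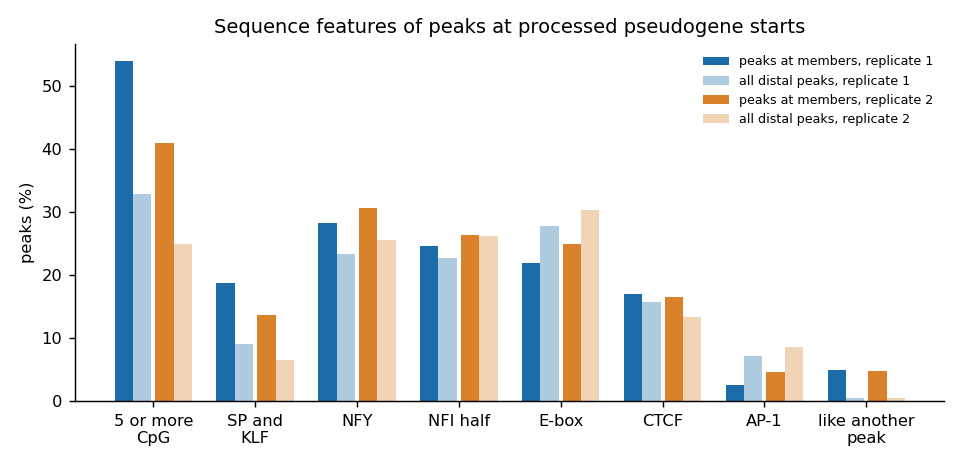
Percent of peaks (y axis) that hold each sequence feature within 100 bp of the peak middle (x axis), and at the right percent of peaks like another peak of their list, with dark bars for peaks at members, pale bars for all distal peaks, blue for replicate 1 and orange for replicate 2. For the sequence features only the strongest peak of each member window was counted. Bars of 5 or more CpG (54.0% against 33.0% in replicate 1), SP and KLF and like peaks are higher at members, and those of AP-1 and E-box are lower.

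The CTCF motif (CCA, 2 free letters, AG, 2 free letters, GGC), bound by the factor that shapes chromatin loops, was in 17.1% of peaks at members against 15.8% of distal peaks in replicate 1, and 16.5% against 13.5% in replicate 2. Of the different footprints at members 31 of 826 (3.75%) held it in replicate 1 and 24 of 805 (2.98%) in replicate 2, against 2.19% and 1.99% of all footprints. The NFI motif TTGGCA was in 5.93% and 7.95% of footprints at members, against 2.83% and 3.84% of all footprints. GGGCGG went the other way in footprints, with 3.03% and 2.73% at members against 8.11% and 6.80% of all footprints. All footprints include those at promoters, so the footprint shares of CTCF, NFI and GGGCGG were not set against distal footprints alone. A CTCF match in a footprint of both replicates was found at 18 members. The matches at the 6 of these with the highest signal are shown, as 30 bases on the strand of the match with the 12 motif letters in capitals, to compare their letters.
Gm21769: atataggggCCACCAGAGGGCgcgaggcgg
Gm10060: atataggggCCACCAGAGGGCgcgaggcgg
Gm6610: acgctgctgCCACTAGAGGGCgcataggat
Gm7688: cgacagcacCCAGAAGAGGGCggaagatac
Gm30970: acctgatcgCCACTAGATGGCgatgcgggc
Rpl34-ps1: ttctcccagCCAGCAGAGGGCagcagaaca

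Gm21769 and Gm10060 have the same letters in all 30 bases. The match lay 179 and 178 bp upstream of their starts. The others lay 787 bp upstream of Gm6610, 417 bp upstream of Gm7688, 679 bp upstream of Gm30970 and 738 bp downstream of the start of Rpl34-ps1. Gm30970 had a signal of 2.73 and 2.35 and Rpl34-ps1, a copy of the ribosomal protein gene Rpl34, of 2.22 and 1.38. A match is a description of the letters and not evidence of a bound factor.

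The tissue label was compared with marker starts in the shorter lists. All 6 granule cell markers had a peak in both replicates, as did both cerebellar patterning genes, all 3 of Bergmann glia and astrocytes, 2 of 4 of Purkinje cells and 1 of 3 of oligodendrocytes. The defining Purkinje gene Pcp2 had no peak. None of the 3 microglia, 2 endothelium, 3 forebrain, 3 other-organ and 2 germ cell markers had a peak. The shorter lists held 61776 and 71141 peaks and the footprint lists 314116 and 320832 footprints.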

How the data were processed

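DNase-seq of whole cerebellum was analysed from peak lists, cut-rate tables and footprint lists that the authors deposited for each of 2 libraries, without pooling, on mm10 per the labels. The members, lists and tests were chosen with earlier results of these data known. The aligner, callers, versions, mappability filters and read numbers were not given in the sources used, so depth per library is unknown. The authors' signal per peak is a coverage value of unstated scale. It was compared between sets within a library. It was averaged over both libraries to choose the members named and, as the mean of the medians, to compare the peak lists. The deposited cut-rate tables hold FDR values (q-values) under 0.05 alone, and the deposited footprints all carry a q-value of 0.01.

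Starts came from GENCODE mouse release 21 (GRCm38) and sequence from RefSeq GRCm38.p6. A window (1 kb each side) was open when a peak overlapped it by 1 bp or more. Genome tiles were 2001 bp long. Parents were sought with BLAST 2.17.0 (E-value 1e-10) and checked by symbol, where 481 of 492 members with a parent's name in their symbol gave the same gene, and on simulated copies, of which 199 of 200 gave theirs. With 1 group no test between groups was possible, so shares have 95% Wilson intervals and means have SD over n = 2. Named members were the 15 highest by mean signal among those open in both replicates, the 8 highest of the transcribed type, the 2 highest of each parent group, the 5 with most footprints and the 3 highest in each replicate alone. Parents were named by member number (5) and by share (3) among those with 20 or more members, and further names were chosen after their values were seen. One member named by this rule is not reported here.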

Additional observations from a re-analysis of the deposited data

How the results depend on the processing

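No paired analysis was possible because the libraries form 1 group and no groups were compared. The mean share of members with a peak was 2.22% and moved to 4.54% with the longer list, 0.721% with peaks at or above the median signal, 1.33% with 500 bp each side, 3.89% with 2 kb each side, 0.459% for the start base and 6.85% for the transcribed type alone. The number open in both, 149, became 253, 52, 84, 259, 26 and 13 in that order. Peak middles in the window, coding distances of 2 and 10 kb, coding transcripts alone, 1 kb from other starts, autosomes only, and leaving out like peaks or a replicate kept the share within 1 SD, and the number where it was counted within 1.5 times. Leaving out a replicate gave shares of 2.10% to 2.34%.

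Tiles, 2.53% on average, moved to 4.27% with the longer list, 1.13% with peaks at or above the median signal, 1.46% and 4.53% with 500 bp and 2 kb each side, and 0.275% at the middle base. Of these settings, members exceeded tiles on average with the longer list and for the single base, and were below with the others. In the same order, lncRNA starts moved from 10.9% to 15.04%, 6.26%, 8.71%, 13.8% and 4.36%, unprocessed pseudogenes from 1.37% to 2.40%, 0.656%, 1.11%, 1.89% and 0.731%, and coding starts from 53.4% to 58.3%, 46.9%, 51.5%, 55.4% and 38.8%.

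With the longer list the median signal, averaged over both libraries despite their different scales, fell from 0.804 to 0.401. The share of ribosomal protein copies rose from 2.26% to 4.14%, that of copies with 98% identity or more from 3.75% to 6.05%, and the share of peak middles within the pseudogene from 36.4% to 43.6%. Members with a footprint fell from 2.95% to 1.92% for footprints inside peaks and to 1.75% with 500 bp each side. CTCF matches rose from 3.37% to 4.12% of footprints inside peaks. Parent groups defined by symbol held few members outside the ribosomal group. Leaving out a replicate gave medians of signal from 0.705 to 0.903, footprint shares from 2.89% to 3.02%, ribosomal shares from 2.02% to 2.49% and shares at 98% identity from 3.5% to 4.0%. Of the 38 named members, 14 had no peak within 500 bp, and none lost its peak in the longer list. The longer list and the wider window find more peaks by construction. Other causes were not tested. Leaving out like peaks and the members of chromosome 8 were added after seeing the data.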
